A study of Mus musculus with 16 samples.

Results

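The comparison was between G2 and LS cells after FOXD3 depletion, in mouse embryonic stem cells profiled by ATAC-seq, in which a transposase cuts and tags open DNA. It was defined by labels alone: the G2 and LS groups under tamoxifen (4HT), 4 of the 16 libraries of the series and 2 of its 8 pooled columns. Every group carried the genotype label FOXD3-iKO and grew in L2i medium, so the ethanol (EtOH) groups differ from the 4HT groups only in the agent given for 24 h. Cells were sorted by DNA content with DAPI, a dye that binds DNA, into fractions called G1, ES, LS and G2; what ES and LS stand for is not spelled out in the labels and the names are kept as given. Neither the deleted stretch of Foxd3 nor the clonal origin of the line is stated. The G2 and LS columns of the EtOH cells, which share no library with the 4HT columns, were used as the control measurement of the same contrast.

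FOXD3, a member of the forkhead family, works in pluripotent cells and the neural crest and has been studied in embryonic stem cells for its part in opening, closing and repressing regulatory DNA. During S phase the genome is copied and its chromatin is rebuilt behind the forks, and in G2 the cell holds a duplicated genome and prepares for mitosis. Many genes of G2 and mitosis are switched by the DREAM and MuvB complexes and by NF-Y through CHR elements and CCAAT boxes in their promoters. Because such genes are transcribed late in the cycle, their promoters were listed together with those of replication, histones, pluripotency and lineage programmes.

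All 127646 accessible regions and 38053 distinct windows of 5000 bp at transcription start sites (TSSs) in the deposited tables were read. Their value is a coverage signal in CPM, the mean over covered bases alone and scaled to library size, so the lowest value in a column is the worth of 1 read. In 4HT cells 1 read was worth 0.0903 in LS and 0.113 in G2, which implies 11.1 M and 8.87 M reads. The order was the opposite in EtOH cells, with 8.17 M reads in LS and 11.2 M in G2. Each group is 1 pooled column without a replicate, so no difference within 4HT has an SD or a test. Intervals were compared when all 8 columns held a read and the mean level over the columns was at least 2 times the value of 1 read for regions or 1.3 times for windows; 11010 regions and 15323 windows met this. The difference is G2 minus LS on the log2(signal + 0.1) scale after loess centring of the 8 columns, a scale that understates the folds of weak intervals. Signals are given before centring, so a small difference can have another sign than the signals printed beside it. Because the minimum was a mean over all columns, an interval could meet it through the columns in which it was high. The only test was a limma fit over the 8 columns with treatment and fraction as terms; its contrast averages G2 minus LS over 4HT and EtOH, and its p-values rest on how pooled columns vary, which may be technical and says nothing of separate cultures.

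By list median, markers of embryonic stem cells had the highest level of the marker promoters in both 4HT columns. The level is a mean over covered bases, so it leaves out how much of a window was covered. The 10 windows of the stem cell list, among them Pou5f1, Sox2, Zfp42 and Klf2, all held a read, with a median level of 1.91 times the value of 1 read in LS and 1.61 in G2. The 9 fibroblast windows, a check for feeder cells, had medians of 1.31 and 1.27, and the 5 primitive endoderm windows 1.13 and 1.29, against 1.35 and 1.26 over all named genes. Summed over each list, these levels were 22.7 and 17.98 for stem cells, 12.5 and 11.9 for fibroblasts and 6.75 and 6.77 for primitive endoderm. The sums cannot be compared between lists, since they grow with the number of windows (10, 9 and 5), each adding at least 1. Single members did not all follow their list. Esrrb stood at 1.16 in LS and 1.21 in G2, and Nanog at 1.19 in G2, below the all-gene medians. In LS, Lama1 of the primitive endoderm list reached 2.18 and Vim of the fibroblast list 1.91. No marker window lacked a read, and promoter accessibility is not expression. In bulk columns, fewer cells with an open site and less opening per cell cannot be told apart.

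The Foxd3 window itself (chr4:99653650-99658649, mm10) had a signal of 0.141 in LS and 0.169 in G2 of 4HT cells, and of 0.155 and 0.110 in EtOH cells. On the centred scale the differences were 0.04 and -0.12, and the window did not pass limma (Benjamini-Hochberg adjusted p 0.991). None of the 6 accessible regions within 5 kb of the gene met the minimum for comparison. The widest of them, chr4:99663319-99664040, had signals of 0.234 in LS and 0.164 in G2 of 4HT cells, and of 0.213 and 0.191 in EtOH cells. These values lie within a few times the worth of 1 read (2.60 and 1.46 times in 4HT), and since the deleted stretch is not stated, they do not check the depletion.

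A small set of loci had far higher signal in G2 than in LS, and did so in both treatments. Whether their reads map to a single place, or fall in repeated or artefact-prone sequence, was not checked for any of them. Over all tested intervals, 2 regions rose in the limma fit (0.0182% of 11010) and none fell, and 6 windows rose (0.0392% of 15323) and 1 fell (0.00653%). At an unadjusted p under 0.05 there were 621 regions (5.64%) and 904 windows (5.9%). The 8 intervals that rose were past the fold threshold in 4HT and in EtOH alike. That follows in part from the fit, which averages the 2 treatments and takes their disagreement as error. The 8 intervals lie at ribosomal RNA genes, within the genes Zc3h7a and Peak1, at the Gm15564 and Kpna1 start sites, and at a pair of places without an annotated gene.

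The steepest gain was at chr17:39846478-39851477, a window over Rn18s-rs5, an annotated copy related to the 18S ribosomal RNA gene, and AY036118. In 4HT cells its signal was 0.634 in G1, 0.301 in ES, 0.250 in LS and 3.56 in G2, and in EtOH cells 0.678, 0.524, 0.374 and 5.22. G2 was therefore the highest column by a wide margin in each treatment, and LS the lowest. The ratio of G2 to LS was 14.2 in 4HT and 13.96 in EtOH, and the mean difference was 3.51 on the log2 scale (SE 0.19, limma adjusted p 4.26e-18). Ribosomal RNA genes are repeated many times in the genome, and how reads shared between copies were assigned is not given in the sources used here, so the locus stands for sequences of this kind and not for a single site.

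Within Zc3h7a, a gene for a zinc finger protein, the region chr16:11144001-11144174 had signals of 1.12, 0.480, 0.692 and 6.65 in G1, ES, LS and G2 of 4HT cells. The EtOH values were 2.19, 0.7501, 1.21 and 9.31. Here too the G2 columns exceeded every other column, while LS lay between ES and G1. The mean difference was 3.07 (SE 0.18, limma adjusted p 3.64e-08). The window that contains the region, chr16:11141476-11146475, rose from 0.172 in LS to 1.57 in G2 of 4HT cells and from 0.364 to 1.72 in EtOH cells (mean difference 2.38, SE 0.18, limma adjusted p 2.26e-13). The gain was local: the 9 other tested windows within 100 kb had 4HT differences between -0.13 and 0.12, and the 2 other regions -0.25 and -0.07.

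The region chr3:5860576-5860834, which overlaps no annotated gene and lies 109281 bp from the nearest TSS, had 4HT signals of 1.41, 0.732, 0.857 and 7.47 in G1, ES, LS and G2. In EtOH cells they were 0.672, 0.689, 0.612 and 7.11. The mean difference was 3.27 (SE 0.20, limma adjusted p 7.86e-08), and no other interval within 100 kb could be compared. A window without an overlapping gene on chromosome 13 (chr13:9832176-9837175) stood at 0.231, 0.273, 0.189 and 0.941 in the 4HT columns and at 0.173, 0.184, 0.159 and 1.57 in the EtOH columns. Its difference was smaller in 4HT (1.79) than in EtOH (2.87), a contrast that could not be tested with 1 column per group.

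Inside Peak1, which encodes a pseudokinase of the cytoskeleton, the window chr9:56221422-56226421 had 4HT signals of 0.221, 0.171, 0.106 and 0.625 and EtOH signals of 0.214, 0.127, 0.214 and 0.469. Its 4HT ratio of G2 to LS was 5.89 and its EtOH ratio 2.19. The LS value of 4HT cells was close to the worth of 1 read (1.17 times), which bounds how low it could be. Both treatments placed G2 above the other 3 fractions, and the window rose by a mean of 1.38 (SE 0.16, limma adjusted p 4.67e-07).

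**Figure D1:**
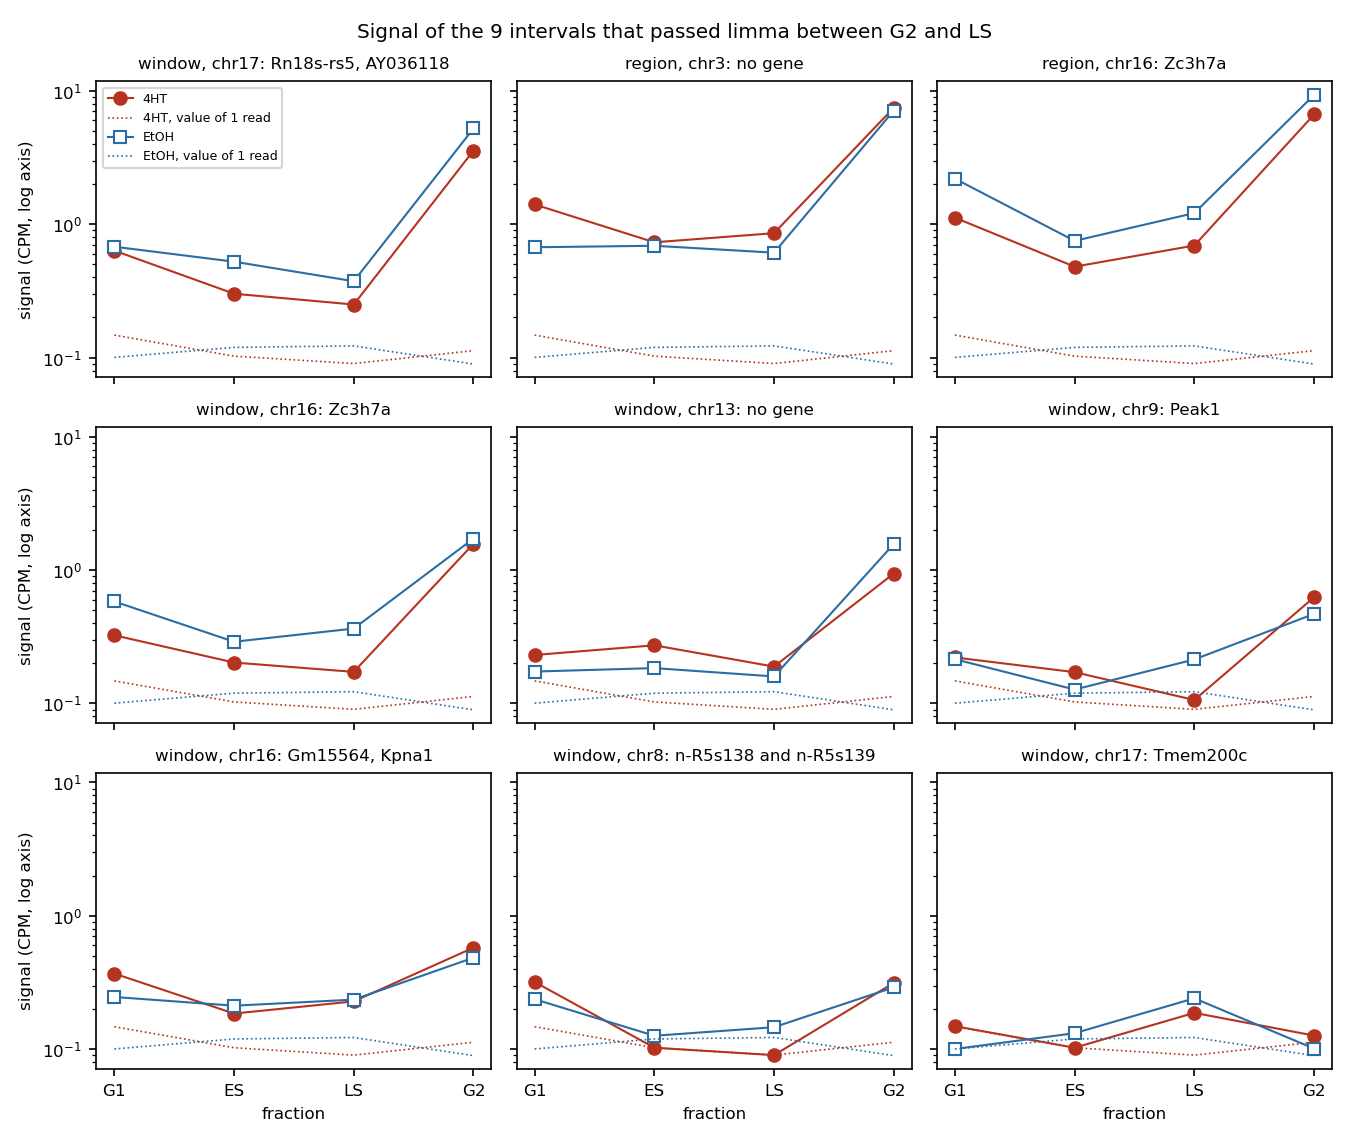
Signal (CPM, log axis) of the 9 intervals that passed limma, in the 4 fractions of 4HT cells (filled circles) and EtOH cells (open squares); dotted lines mark the value of 1 read in each column. In 7 of the 8 intervals that rose the G2 points stand above all other fractions in both treatments, the exception being n-R5s138 in 4HT cells, where G1 (0.319) and G2 (0.314) are alike.

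The 5S ribosomal RNA genes gave another gain. The window over n-R5s138, n-R5s139 and Rn5s-ps1 (chr8:123601016-123606015) had 4HT signals of 0.319 in G1, 0.103 in ES, 0.0903 in LS and 0.314 in G2. EtOH cells gave 0.237, 0.126, 0.146 and 0.291. ES and LS of 4HT cells stood at the value of 1 read, and G1 was as high as G2, so this window separated ES and LS from the other fractions. The window rose by 0.93 between LS and G2 (SE 0.13, limma adjusted p 2.85e-05). The 5S genes form a tandem cluster on chromosome 8, and of the 41 windows there 5 could be compared: 4 had a positive 4HT difference (median 0.29) and 5 a positive EtOH difference (median 0.46). These 5 hold the called window itself and the n-R5s136 window, which overlaps it, so the count is not separate from the call. Among 5 windows with 5S genes elsewhere, 4 were positive in 4HT (median 0.15) and 2 in EtOH (median -0.10). Among the latter, n-R5s88 inside Ephb1 stood at 0.107 in LS and 0.326 in G2 of 4HT cells but at 0.134 and 0.116 in EtOH cells. Without its 4HT G2 column, at 2.89 times the value of 1 read, n-R5s88 would not have met the minimum of 1.3. The 5S copies are near identical, and a gain at any one of them cannot be assigned to it.

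Last among the gains was the window chr16:35980881-35985880, which holds the starts of Gm15564, a predicted gene, and Kpna1, which encodes a nuclear import receptor. Its signals were 0.369, 0.185, 0.228 and 0.577 in 4HT cells and 0.246, 0.212, 0.235 and 0.485 in EtOH cells, and it rose by 0.98 (SE 0.15, limma adjusted p 0.00019). The accessible region over the promoter of Gm15564 (chr16:35982918-35984100) did not follow the window: its signal was 0.263 in LS and 0.192 in G2 of 4HT cells, and 0.397 and 0.206 in EtOH cells. Where in the window the signal was higher was not measured. The Gm15564 promoter is shown because it is the printable sequence at a called locus; it comes from RefSeq (GRCm38.p6, chr16:35983310-35983579, minus strand) and reaches from 250 bases before the start to 20 bases from it on, with none of the motifs searched below.
Gm15564: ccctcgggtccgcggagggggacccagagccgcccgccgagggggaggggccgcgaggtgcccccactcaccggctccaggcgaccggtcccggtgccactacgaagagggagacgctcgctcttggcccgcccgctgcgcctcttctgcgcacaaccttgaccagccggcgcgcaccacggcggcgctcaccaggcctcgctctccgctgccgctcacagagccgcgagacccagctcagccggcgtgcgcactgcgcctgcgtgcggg

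The window that fell was at Tmem200c (chr17:68834487-68839486), a gene for a transmembrane protein. Its signals were 0.149, 0.103, 0.187 and 0.127 in 4HT cells and 0.1004, 0.132, 0.241 and 0.101 in EtOH cells. LS was the highest fraction in both treatments, and G2 was at 1.12 times the value of 1 read in 4HT. The Tmem200c window fell by 0.53 (SE 0.10, limma adjusted p 0.0130), and the call was lost in 5 of 11 alternative settings. It is the least secure of the 9. The 8 gains kept their call in every alternative setting that tested them except removal of the median of each 1 Mb domain, under which the Zc3h7a window alone passed (adjusted p 0.0480).

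Not every strong site passed the test. The strongest region of all, named for its level, chr1:24613019-24613216 near Gm10222, had a signal of 803 in LS and 779 in G2 of 4HT cells, and its difference was -0.06. A region 35442 bp from the Pak3 start (chrX:143482967-143483149) had 4HT signals of 4.00, 3.01, 3.13 and 7.79, so that G2 stood at 2.49 times LS, whereas the EtOH values of 5.82, 4.97, 4.92 and 5.93 were close together. Pak3 encodes a kinase activated by small GTPases. This region did not pass limma (adjusted p 0.612).

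Apart from these loci, few intervals with large G2 to LS differences in 4HT were as far apart the same way in EtOH. In 4HT cells 199 regions (1.81%) were at least 2-fold higher in G2 and 212 (1.93%) at least 2-fold lower, and 29 windows (0.189%) were at least 1.5-fold higher and 32 (0.209%) lower. EtOH cells gave similar counts, 192 (1.74%) and 252 (2.29%) regions and 44 (0.287%) and 48 (0.313%) windows. Of the 411 regions past 2-fold in 4HT, 206 (50.1%) had the same sign in EtOH, against 51% of all tested regions, and of the 61 windows 31 (50.8%) had, against 51.2%. Past the fold the same way in both treatments were 21 regions (5.11% of the 4HT set, 4.73% of the EtOH set), and 19 (4.62%) were past it in opposite ways. For windows these counts were 7, all higher in G2 (11.5% of the 4HT set, 7.61% of the EtOH set), and 5 (8.2%). These counts hold the called loci, and 6 of the 7 windows are called ones. Without the called intervals, 204 of 409 regions (49.9%, against 51.01% of all regions not called) and 25 of 55 windows (45.5%, against 51.1%) had the same sign in EtOH. Past the fold the same way were then 19 regions, 10 higher and 9 lower, and 1 window, Ftl1-ps2, beside 19 regions and 5 windows past it in opposite ways. Across intervals the 2 treatments' differences correlated with a Pearson r of 0.043 over 11010 regions and 0.069 over 15323 windows. Without the called intervals r was 0.035 and 0.023. Depth and base composition are shared by the points. For regions not called, r was 0.029 at mean levels of 2 to 2.5 times the value of 1 read and 0.018 at 2.5 to 3. At 3 to 5 times r was 0.066, at 5 to 10 times 0.071, and over the 68 regions from 10 times up 0.022. The share of regions past 2-fold with the same sign in EtOH was higher with a higher minimum, as given in the last section. The share of higher windows depended on the scaling: as deposited, the median window was higher in G2 by 0.11 in 4HT and lower by 0.16 in EtOH, with 91 windows past 1.5-fold higher and 13 lower, and with median centring 23 and 50.

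**Figure D2:**
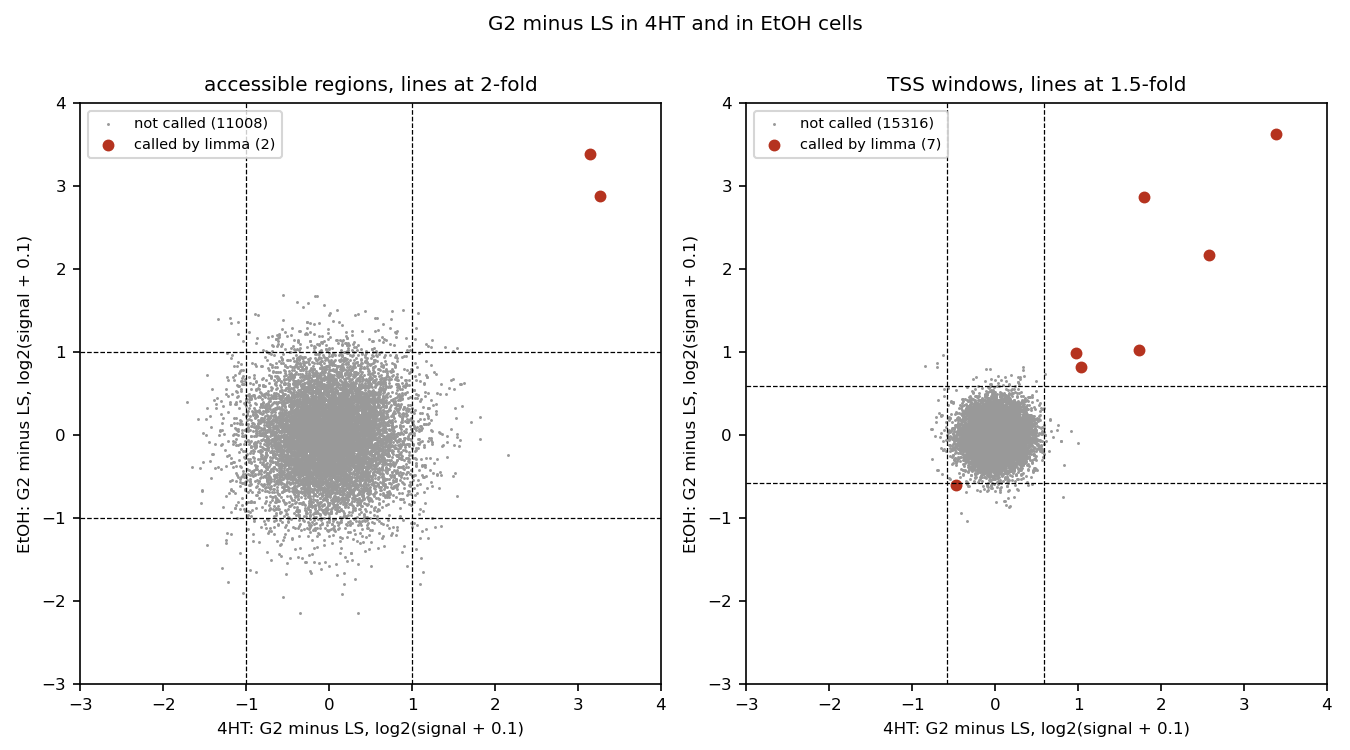
G2 minus LS in 4HT cells (x axis) and EtOH cells (y axis), both on the log2(signal + 0.1) scale, for 11010 regions and 15323 windows; dashed lines mark 2-fold and 1.5-fold. The cloud is round, with a Pearson r of 0.043 for regions and 0.069 for windows, and the called intervals in red lie apart from it, with the exception of the Tmem200c window.

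The fold limits cut through a continuous spread. Differences of single regions had an SD of 0.47 in 4HT over the 11010 regions, and those of windows 0.19 over 15323. The smallest window difference counted as higher was 0.59 and the largest left out 0.58.

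Among regions past 2-fold higher in G2 with the same sign in EtOH, a condition that set the sign in EtOH, the highest after the called loci lay, besides the Pak3 region, at Ogdh, Brd2, Tmem245, Cyp4f16, Platr4 and Cic. Regions whose nearest gene is only predicted were passed over in this ranking, 6 of them above Cic, led by a region overlapping Foxn2 (chr17:88468826-88468974, nearest gene LOC115488851) with 0.213 in LS and 0.887 in G2 of 4HT cells and 0.519 and 0.553 in EtOH cells. A region at the start of Ogdh, which encodes a subunit of the 2-oxoglutarate dehydrogenase of the citric acid cycle, stood at 0.0903 in LS, the value of 1 read, and at 0.558 in G2 of 4HT cells, and at 0.310 and 0.344 in EtOH cells. Brd2 encodes a bromodomain protein that binds acetylated histones. The region 635.5 bp from its start had 4HT signals of 0.0903 in LS and 0.481 in G2, and EtOH signals of 0.330 and 0.521. At Cic, a repressor of receptor kinase targets, 4HT signals were 0.0923 and 0.434 and EtOH signals 0.221 and 0.508, which put the region past 2-fold in both treatments. None of these passed limma (adjusted p 0.583 to 0.828). The Cyp4f16 region met the minimum of 2 only through its G2 columns, at 4.70 times the value of 1 read in 4HT and 3.07 in EtOH.

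Of the 21 regions past 2-fold the same way in both treatments, 12 were higher in G2 (2.92% of the 4HT set) and 9 lower (2.19%). Apart from the called ones, the higher ones included sites at Dnmt3l, a cofactor of de novo DNA methylation (0.142 in LS and 0.471 in G2 of 4HT; 0.122 and 0.359 in EtOH), at Aars, a tRNA synthetase (0.132 and 0.438; 0.178 and 0.442), and 17170.5 bp from Otp, a homeobox gene (0.195 and 0.666; 0.211 and 0.505). The lower ones included sites at Zfp119a, a zinc finger gene (0.698 in LS and 0.224 in G2 of 4HT; 0.882 and 0.277 in EtOH), and at Syngr4 (0.471 and 0.131; 0.581 and 0.110). These examples were chosen after their values were seen, and their limma adjusted p-values ran from 0.504 to 0.612. At each of them both G2 columns lay on the same side of both LS columns. That follows in large part from their choice as regions past 2-fold the same way in both treatments. The Dnmt3l region, moreover, met the minimum of 2 only through its G2 columns, at 4.18 times the value of 1 read in 4HT and 4.02 in EtOH.

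The regions lowest in G2 of 4HT cells, with the same sign in EtOH, were near Slc25a36, Sh2d6, Rab6b, Wdr45, Smbd1, Lefty2, Tmem260 and Psmc4. Passed over in the same way were 7 regions below Psmc4, led by one near Gm9257 (chr12:19668583-19668712) with 0.589 and 0.113 in 4HT cells and 0.539 and 0.354 in EtOH cells. At Slc25a36, a mitochondrial pyrimidine nucleotide carrier, the region over the promoter (chr9:97111063-97111395) had 4HT signals of 0.180, 0.461, 0.738 and 0.178 in G1, ES, LS and G2. The EtOH signals were 0.417, 0.391, 0.355 and 0.221. LS was thus the peak in 4HT cells, at 8.17 times the value of 1 read, whereas in EtOH cells it lay between ES and G2, and the differences were -1.55 and -0.40 (limma adjusted p 0.828). A region 3020.5 bp from Lefty2, a Nodal antagonist that is active in embryonic stem cells, stood at 0.496 in LS and 0.121 in G2 of 4HT cells and at 0.214 and 0.152 in EtOH cells. Without its 4HT LS column, at 5.50 times the value of 1 read, this region would not have met the minimum of 2. Nor would the Sh2d6 and Smbd1 regions have met it without their LS columns. Psmc4, a proteasome ATPase subunit, had 0.562 and 0.155 at its start in 4HT cells and 0.298 and 0.245 in EtOH cells. The promoter of Slc25a36 is printed since its region had the lowest difference among the named ones at a start site; the capitals mark a CCAAT box (chr9:97111022-97111291, minus strand, RefSeq GRCm38.p6).
Slc25a36: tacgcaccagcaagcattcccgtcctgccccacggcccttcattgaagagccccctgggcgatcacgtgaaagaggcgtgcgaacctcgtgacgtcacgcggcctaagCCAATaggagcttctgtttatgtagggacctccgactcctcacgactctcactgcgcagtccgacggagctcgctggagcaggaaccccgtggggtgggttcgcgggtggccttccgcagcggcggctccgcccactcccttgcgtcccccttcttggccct

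Whatever the sign in EtOH, the highest 4HT difference outside the called loci was that of a region in Cldn34d on the X chromosome, at 0.0989 in LS and 0.745 in G2. Its EtOH signals were 1.002 and 0.773, so the low value was that of the 4HT LS column. Among windows it was Ap1s2, a subunit of a clathrin adaptor, at 0.191 and 0.514 in 4HT cells and 0.278 and 0.214 in EtOH cells. Armcx1 (0.257 and 0.125; EtOH 0.161 and 0.146) and Tle4, a Groucho family corepressor (0.539 and 0.288; EtOH 0.530 and 0.479), were among the lowest. On the centred scale the EtOH differences of Armcx1 and Tle4 were 0.07 and 0.08. Cldn34d, Ap1s2, Armcx1 and Tle4 were named after their values were seen.

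Windows at least 1.5-fold higher in G2 with the same sign in EtOH, other than those already described, were at Sh3bp4, Xlr3a, Tagap1 and Ftl1-ps2. Sh3bp4, which takes part in receptor endocytosis, had 0.293 in LS and 0.580 in G2 of 4HT cells and 0.392 and 0.347 in EtOH cells as deposited. Ftl1-ps2, a ferritin pseudogene whose reads may be shared with its parent gene, was past 1.5-fold in both treatments (0.193 and 0.368; 0.237 and 0.393; limma adjusted p 0.225). Windows at least 1.5-fold lower were at Rfesd, Emc10 with Fam71e1, Med30, Mad2l1, Ivd, Ankrd37 and Usp22. Rfesd, a Rieske domain protein, stood at 0.279 and 0.136 in 4HT cells and 0.231 and 0.143 in EtOH cells. Med30, a subunit of Mediator, stood at 0.222 and 0.119, and 0.220 and 0.182. Apart from Ftl1-ps2, these windows had limma adjusted p-values of 0.457 to 0.842.

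Promoters of G2 and mitosis genes were spread about 0 between G2 and LS. Of the 51 listed genes 49 had a window and 46 could be compared; 21 of the 46 lay above 0 in 4HT, with a median of -0.02, beside 49.7% above 0 (50.3% in EtOH) and a median of -0.00 over all 13435 genes. No member rose or fell in the limma fit, beside 3 (0.0223%) and 1 (0.00744%) of all genes, and 1 member (2.17%) had an unadjusted p under 0.05, against 5.63% of all genes. The single member past 1.5-fold, beside 22 higher (0.164%) and 29 lower (0.216%) among all genes, was Mad2l1, the spindle checkpoint protein that holds back anaphase. Its window signal was 0.174, 0.160, 0.353 and 0.205 in G1, ES, LS and G2 of 4HT cells and 0.288, 0.196, 0.279 and 0.206 in EtOH cells. The LS value of 4HT cells was the highest of the 8, and the difference was -0.65 in 4HT and -0.15 in EtOH (limma adjusted p 0.842).

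Other large members pointed both ways. Top2a, the topoisomerase that untangles sister chromatids, stood at 0.129 in LS and 0.219 in G2 of 4HT cells but at 0.174 and 0.107 in EtOH cells. Cdca8, a subunit of the chromosomal passenger complex, had 0.148 and 0.227 in 4HT and 0.189 and 0.149 in EtOH. Prc1, which bundles the microtubules of the central spindle, had 0.145 and 0.210, and 0.287 and 0.198. All 3 were higher in G2 of 4HT cells and lower in G2 of EtOH cells. Ect2, the exchange factor that starts cytokinesis, stood at 0.295 and 0.217 in 4HT and 0.384 and 0.277 in EtOH, and the kinetochore protein Cenpf at 0.220 and 0.164, and 0.253 and 0.231. On the centred scale Ect2 was below 0 in both (-0.39 and -0.19), and Cenpf in 4HT only (-0.36 and 0.06). Ckap2 had differences of -0.30 in 4HT and 0.37 in EtOH, and Ccnf, a cyclin that directs protein destruction in G2, -0.27 and 0.13. Of the 8 members with the largest 4HT difference, 2 had the same sign in EtOH, and over the 46 members 21 had (45.7%), against 51.3% of all genes. Cyclin B1, the activator of CDK1 at mitotic entry, had similar differences in both (Ccnb1 0.23 and 0.24), and Cdk1 itself 0.02 and 0.08; these 2 were named for their role, after their values were seen.

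The promoters of the 4 members with the largest 4HT difference follow, from 250 bases before the start to 20 bases from it on, in RefSeq GRCm38.p6; capitals mark CHR elements, CCAAT boxes and forkhead motifs on either strand, whose letters are spelled out after the sequences. Mad2l1 (chr6:66534971-66535240, plus strand) holds none of them, Ect2 (chr3:27153859-27154128, minus strand) all 3 kinds, and Top2a (chr11:99024170-99024439, minus strand) and Cenpf (chr1:189688067-189688336, minus strand) CHR elements and CCAAT boxes.
Mad2l1: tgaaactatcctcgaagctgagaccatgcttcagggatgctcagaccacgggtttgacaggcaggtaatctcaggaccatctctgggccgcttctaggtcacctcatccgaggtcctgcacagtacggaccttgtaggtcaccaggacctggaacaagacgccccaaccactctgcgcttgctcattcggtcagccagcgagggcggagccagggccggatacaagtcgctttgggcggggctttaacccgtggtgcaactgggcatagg
Ect2: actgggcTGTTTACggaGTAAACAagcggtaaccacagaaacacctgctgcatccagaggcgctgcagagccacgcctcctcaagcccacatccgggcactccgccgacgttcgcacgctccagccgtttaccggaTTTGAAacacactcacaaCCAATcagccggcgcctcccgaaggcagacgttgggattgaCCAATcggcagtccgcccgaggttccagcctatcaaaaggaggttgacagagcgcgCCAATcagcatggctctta
Top2a: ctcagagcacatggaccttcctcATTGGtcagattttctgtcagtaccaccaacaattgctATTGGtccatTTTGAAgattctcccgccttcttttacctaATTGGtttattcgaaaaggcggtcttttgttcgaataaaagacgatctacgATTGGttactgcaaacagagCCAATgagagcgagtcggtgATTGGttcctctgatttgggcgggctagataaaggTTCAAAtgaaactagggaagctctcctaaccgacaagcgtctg
Cenpf: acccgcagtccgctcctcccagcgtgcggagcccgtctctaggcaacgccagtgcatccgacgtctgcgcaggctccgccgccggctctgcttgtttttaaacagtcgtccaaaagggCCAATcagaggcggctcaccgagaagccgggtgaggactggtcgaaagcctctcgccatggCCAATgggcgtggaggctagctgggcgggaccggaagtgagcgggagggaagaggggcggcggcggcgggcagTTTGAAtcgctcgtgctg

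The accessible regions over these promoters had differences of the same sign as their windows in both treatments, and none passed limma. Over Mad2l1 the region (chr6:66534959-66535842) had a signal of 0.693 in LS and 0.312 in G2 of 4HT cells and 0.533 and 0.389 in EtOH cells. Over Ect2 the values were 0.542 and 0.353, and 0.619 and 0.434, lower in G2 in both treatments. Over Top2a they were 0.195 and 0.375, and 0.275 and 0.158, in opposite directions. Over Cenpf they were 0.433 and 0.212, and 0.418 and 0.467. Promoters grouped by these letters had medians near 0. Of 9811 tested windows with a promoter sequence (250 bases before to 50 after the start), 1124 held the CHR letters TTTGAA (11.5%, against 17.9% of all 32851 promoters in the table); their median 4HT difference was 0.00, as was that of the rest. CCAAT was held by 3994 (40.7%, against 37.4% of all) with medians of -0.00 and 0.00, the E2F letters TTTGGCGC or TTTCGCGC by 173 (1.76%, against 0.813%) with -0.03 and 0.00, and the forkhead letters TGTTTAC by 221 (2.25%, against 3.65%) with -0.03 and 0.00. Both strands were searched; no motif contains another, but matches can overlap by a few letters. Of 37 G2 and mitosis promoters with a sequence, 25 held a CHR element (median 4HT difference 0.02, against -0.03 without) and 27 a CCAAT box (0.02, against -0.05).

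**Figure D3:**
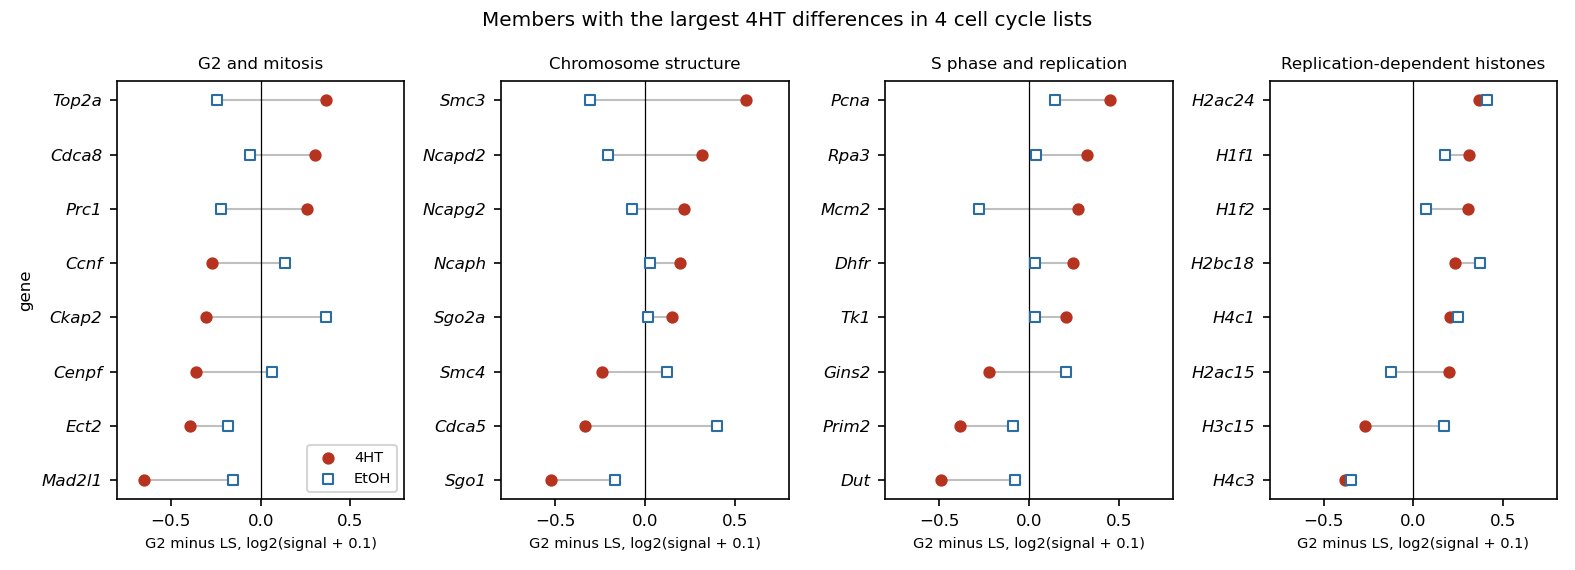
G2 minus LS on the log2(signal + 0.1) scale in 4HT cells (circles) and EtOH cells (squares) for the 8 members with the largest 4HT difference in each of 4 gene lists. The treatments fall on opposite sides of 0 for 6 of 8 members of G2 and mitosis, 5 of chromosome structure, 2 of S phase and replication and 2 of replication-dependent histones.

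Cohesin and condensin genes pointed in both directions. Of the 24 genes for chromosome structure 19 could be compared, 12 of them above 0 in 4HT (median 0.02) and 7 in EtOH (median -0.07), and none passed limma, with 1 (5.26%) at an unadjusted p under 0.05, against 5.63% of all genes. Smc3, a core cohesin subunit, stood at 0.201 in LS and 0.368 in G2 of 4HT cells and at 0.373 and 0.239 in EtOH cells. Next to it, a region 2969.5 bp from the Smc3 start (chr19:53597170-53597427), named after its values were seen, had 0.537 in LS and 0.113, the value of 1 read, in G2 of 4HT cells. In EtOH cells that region had 0.167 in LS and 0.185 in G2. Sgo1, shugoshin, which protects cohesin at centromeres, had 0.284 and 0.183 in 4HT and 0.286 and 0.208 in EtOH. The condensin gene Ncapd2 had differences of 0.32 and -0.20, and Cdca5, which encodes sororin, -0.33 and 0.40. Same signs in both treatments were seen for 4 of 19 members (21.1%), against 51.3% of all genes.

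Replication genes were centred on 0. Of 52 genes 49 could be compared, 24 above 0 in 4HT (median -0.01) and 22 in EtOH (median -0.04); none passed limma and 2 (4.08%) had an unadjusted p under 0.05, against 5.63% of all genes. Pcna, the sliding clamp, had the highest 4HT difference (0.45, and 0.15 in EtOH). Its signals before centring were 0.230 in LS and 0.373 in G2 of 4HT cells, and 0.264 and 0.254 in EtOH cells. Dut, which removes dUTP, had the lowest difference, with signals of 0.328 and 0.221 in 4HT and 0.251 and 0.197 in EtOH. The primase subunit Prim2 (0.179 and 0.132; EtOH 0.192 and 0.145) was also lower in both, and the helicase subunit Mcm2 was higher in 4HT (0.27) and lower in EtOH (-0.28). In the list of G1 and S cyclins, 22 of 26 genes were compared, with a median of 0.02 and differences from -0.33 for E2f5 to 0.33 for Cdc25a, the phosphatase that activates CDK2.

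Replication-dependent histone genes, which are transcribed in S phase, had list medians above 0, smaller in 4HT than in EtOH. Of 63 genes, 51 could be compared: 29 lay above 0 in 4HT (median 0.06) and 39 in EtOH (median 0.16), and none passed limma (smallest adjusted p 0.526), with 6 (11.8%) at an unadjusted p under 0.05, 3 higher and 3 lower, against 5.63% of all genes. H2ac24 stood at 0.115 in LS and 0.201 in G2 of 4HT cells and at 0.122 and 0.165 in EtOH cells. H4c3 had the opposite pattern in both, with 0.157 and 0.115, and 0.196 and 0.108. H2bc18 (0.23 and 0.37) and H4c1 (0.21 and 0.25) were higher in both treatments. Histone genes share coding sequence with their copies and lie close together, so their windows overlap in part. The difference between treatments was not tested.

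**Figure D4:**
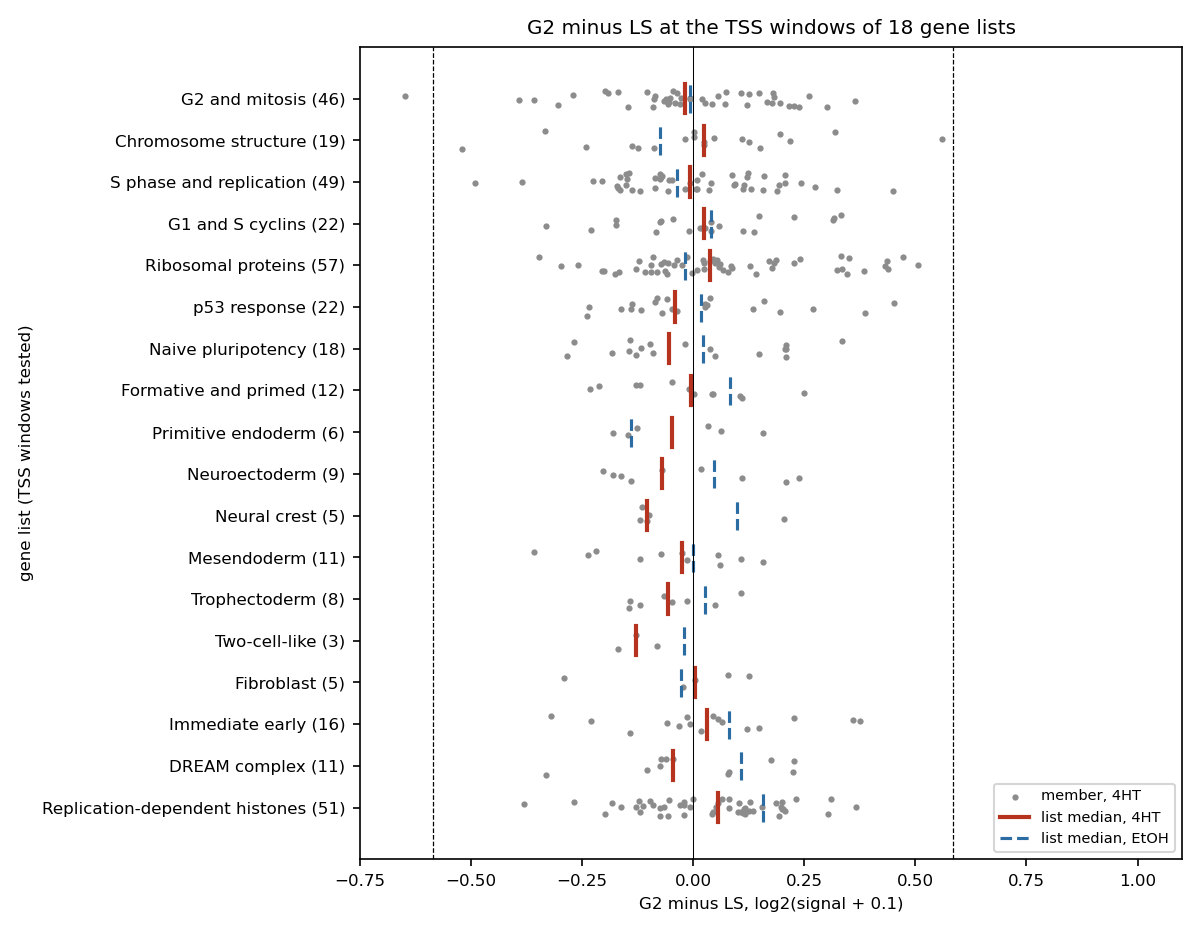
G2 minus LS on the log2(signal + 0.1) scale for the tested TSS windows of 18 gene lists; grey points are members in 4HT cells, red and blue bars the list medians in 4HT and EtOH cells, dashed lines 1.5-fold. List medians in 4HT lie between -0.13 and 0.06, and Mad2l1 is the only member past a dashed line.

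Ribosomal protein genes, which are active throughout growth, had a median of 0.04 with 33 of 57 above 0 in 4HT, and -0.02 with 25 of 57 in EtOH. Rplp1 stood at 0.121 in LS and 0.239 in G2 of 4HT cells and at 0.199 and 0.146 in EtOH cells, and Rpl11 at 0.120 and 0.228, and 0.188 and 0.150. Among p53 response genes 10 of 22 were above 0 (median -0.04); Rrm2b, a ribonucleotide reductase subunit, had 0.231 and 0.377 in 4HT and 0.307 and 0.243 in EtOH. Genes of the immediate early response had 9 of 16 above 0 (median 0.03), led by Fosb (0.201 and 0.312; EtOH 0.212 and 0.233). The DREAM complex genes had 5 of 11 above 0 (median -0.05).

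Naive pluripotency genes had a median of -0.05 in 4HT with 8 of 18 above 0, and 0.02 in EtOH with 9 of 18. Nanog, a core factor of the network, stood at 0.162 in LS and 0.134 in G2 of 4HT cells and at 0.181 and 0.116 in EtOH cells. Klf2 had 0.318 and 0.265, and 0.372 and 0.315. Dppa2, a chromatin factor of early embryos, had 0.155 and 0.244, and 0.204 and 0.164. The Nanog differences were -0.28 and -0.22, those of Klf2 -0.27 and -0.005, and those of Dppa2 0.34 and -0.05. Pou5f1 (-0.02) and Zfp42 (-0.09) were near 0 in 4HT cells and at -0.37 and -0.43 in EtOH cells.

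Of 120 entries in the 8 lists of lineage and other cell types, 105 had a window and 59 could be compared. Formative and primed genes had 6 of 12 above 0 in 4HT (Lef1 0.25), neuroectoderm 4 of 9 (Tubb3 0.24), mesendoderm 4 of 11 (Evx1 -0.36), trophectoderm 2 of 8 (Tead4 -0.14), primitive endoderm 3 of 6 (Sparc -0.18), neural crest 1 of 5 (Erbb3 0.21), the 2-cell-like list 0 of 3 and fibroblast markers 3 of 5 (Vim -0.29). In the neural crest list, where FOXD3 itself acts, Erbb3 stood at 0.159 in LS and 0.220 in G2 of 4HT cells and at 0.159 and 0.242 in EtOH cells. Mesp1 and Mesp2 of the mesendoderm list were at -0.24 and -0.22 in 4HT. No lineage gene passed limma or was past 1.5-fold.

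Medians of regions near promoters lay slightly above 0, and those of more distant regions slightly below. The 6153 tested regions within 1 kb of a TSS had a median of 0.03 in 4HT and 0.01 in EtOH, with 52.4% above 0 in 4HT. The 2489 regions at 1 to 10 kb had medians of -0.01 and -0.00, the 2212 at 10 to 100 kb -0.06 and -0.05 with 45.8% above 0 in 4HT, and the 156 beyond 100 kb -0.01 and -0.03. The gap between the nearest class and that at 10 to 100 kb was 0.08 in 4HT. It grew to 0.14 with a higher minimum and was 0.00 with no minimum. The spread of single regions, an SD of 0.42 and 0.51 in these classes, was several times the gap.

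Across chromosomes, medians of tested regions lay between -0.06 and 0.05 in 4HT. Chromosome 18 was the lowest in both treatments (-0.06 and -0.08). Chromosomes 8 (0.03 and 0.009), 11 (0.02 and 0.05), 15 (0.03 and 0.04) and 16 (0.04 and 0.002) were above 0 in both. The sign was the same in 13 of 20 chromosomes. Over 822 bins of 1 Mb with at least 5 tested regions, the 4HT and EtOH medians correlated with a Pearson r of 0.096, and over the 317 bins with at least 10 with 0.17; neighbouring bins share sequence composition. The bin of chromosome 11 from 117 to 118 Mb, with Birc5, Tk1 and Socs3 among its genes, had the highest 4HT median among bins of at least 10 regions with the same sign in both treatments (0.36 in 4HT and 0.35 in EtOH over 12 regions). The bin of chromosome 17 from 57 to 58 Mb had the lowest (-0.27 and -0.35 over 10 regions).

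The number of regions with any read followed depth. In 4HT cells 14249 of 127646 regions (11.2%, 95% Wilson interval 10.99 to 11.3) had a read in G2 but not in LS, and 22337 (17.5%, 17.3 to 17.7) in LS but not in G2. In EtOH cells, where G2 was the deeper column, the shares were 18.01% and 11.1%. The intervals cover counting error only. Of the regions read in G2 only in 4HT cells, 66.8% stood at the value of 1 read. Since the signal is a mean over covered bases, several reads that do not overlap give that value too. The highest of these regions reached 4.49 times the value of 1 read, at chr15:75909992-75910112 in Tigd5, 208 bp from the Eef1d start. A region 29946.5 bp from Impg1 (chr9:80495385-80495552) was the highest of those read in LS only, at 9.18 times, while EtOH cells had 1.64 and 3.88 times in LS and G2. Of the 14249 regions read in G2 only in 4HT, 3667 (25.7%) were read in G2 only in EtOH as well, which is 15.95% of the EtOH set, and 15.9% were read in LS only in EtOH. Of the 22337 regions read in LS only in 4HT, 16.1% were read in LS only in EtOH and 24.7% in G2 only. Both 4HT sets were thus read in G2 only more often than in LS only in EtOH cells, where G2 was the deeper column and the shares over all regions were 18.01% and 11.1%. With at least 2 times the value of 1 read required, the 4HT shares were 0.537% and 1.41%.

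**Figure D5:**
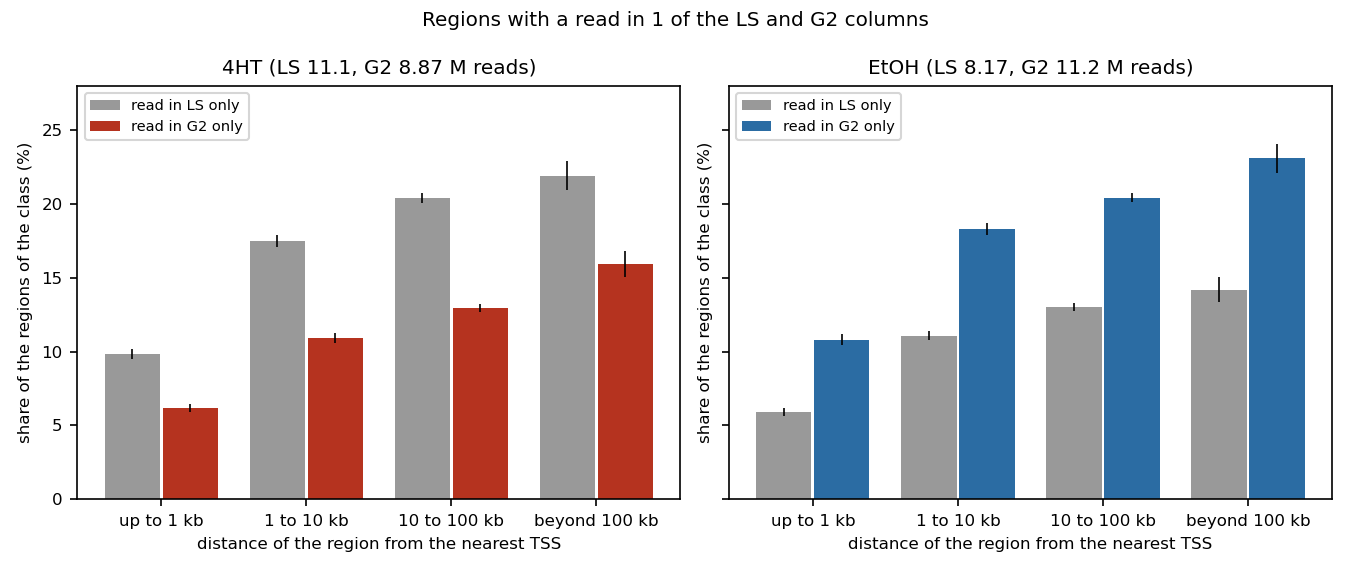
Share of accessible regions (%) with a read in LS but not in G2 (grey) or in G2 but not in LS (coloured), by distance class from the nearest TSS, in 4HT and EtOH cells; error bars are 95% Wilson intervals. In 4HT cells the LS bars are the higher ones and in EtOH cells the G2 bars, in each case the deeper of the 2 columns.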

How the data were processed

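ATAC-seq was measured in 16 libraries, deposited as 8 columns that each pool the 2 libraries of a group. The deposited signal is coverage in CPM, per the file headers, and its values behave as means over covered bases alone; the submitters' processing notes name mm10, featureCounts and DESeq2 with neither roles nor versions. How reads were aligned, which program made the coverage and how reads shared by copies were handled are not given in the sources used here. Values were read with Python 3.11.15 and pandas 2.3.3, and 34 duplicate window rows were dropped. The value of 1 read was taken as the lowest value of a column, and a missing value as no read. Differences are log2(signal + 0.1) after cyclic loess over the 8 columns. limma 3.58.1 (R 4.3.3, trend and robust moderation, treatment and fraction as terms, 3 residual degrees of freedom) tested G2 minus LS over both treatments, at a Benjamini-Hochberg adjusted p of 0.05 over all tested intervals of a table. The fit was also run on simulated data with independent normal noise and the same change in the G2 columns of both treatments. The simulation lacked the floor of 1 read and intervals without a read, so it does not speak for weak intervals.

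Windows were named for a gene when its start was at most 500 bp from the reference point of the window, which matched 18992 of 21896 protein-coding genes of the annotation. Named in the text are the called intervals, the 8 highest and 8 lowest past the fold with the same sign in EtOH, and per list the 3 members with the largest difference (8 for the 4 cell cycle lists), besides Foxd3 and its regions; other names are marked as chosen after their values were seen, come from the marker lists or lead a stated ranking. Windows and regions with only a predicted gene were passed over unless called. The lists and the comparison were chosen with earlier results of these data known. Alternatives were other pseudocounts, minimums, centrings and corrections. Depth was 6.78 to 11.2 M reads per column, so values near 1 read are coarse. Motifs were sought in RefSeq promoter sequences.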

Additional observations from a re-analysis of the deposited data

Results flagged for a closer look

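Of 15323 tested windows, 5 were past 1.5-fold in both treatments but in opposite directions; the difference between treatments was not tested, since each group has 1 column. Gm21103 (chromosome 14) stood at -0.85 in 4HT and 0.83 in EtOH. Gm13272 and Ifnz, overlapping windows in the interferon cluster of chromosome 4, stood at -0.70 and 0.83, and at -0.70 and 0.86. Fnta, which encodes the shared subunit of the farnesyl and geranylgeranyl transferases, stood at 0.81 and -0.75. A window without a gene near the start of chromosome 9 (chr9:3031950-3036949) stood at -0.62 and 0.97. For these families of near-identical copies, other than Fnta, the handling of shared reads is not given in the sources used here.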

How the results depend on the processing

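No paired analysis was possible because the columns carry no replicate numbers, and leaving out a replicate could not be run, since each group is 1 pooled column. The counts past a fold depended on the settings, and the cause was not tested. Regions at least 2-fold higher and lower in 4HT numbered 388 and 390 with a pseudocount of 0.05, 4 and 0 with 0.5, 408 and 356 without a minimum, 39 and 46 with a higher minimum, 608 and 710 with a correction for reads hidden by the average, and 576 and 404 with the minimum set on the 4HT LS and G2 columns. Windows past 1.5-fold numbered 103 and 100, 4 and 0 with those pseudocounts, 12 and 16 with a higher minimum, 91 and 13 as deposited, 753 and 737 with the correction, and 50 lower with median centring. In limma, removing the medians of 1 Mb domains left 0 regions and 1 window higher and 0 windows lower (smallest adjusted p over regions 0.0589), which needs other tested intervals in the domain: the Rn18s-rs5 window had none. With the LS and G2 columns alone, 9 regions and 4 windows were lower. The lower window count was 0 without a minimum, with a higher minimum, as deposited, with the correction and without trend. The share of regions read in LS only was 17.8% with 1 region per group of near neighbours, and 1.41% (0.537% for G2 only) at 2 times the value of 1 read. The share with the same sign in EtOH was 60.0% of regions past 2-fold with a higher minimum, over the 39 higher and 46 lower ones. The share over all regions at that minimum is not given here. The gap between distance classes was 0.136 with a higher minimum and 0.0018 without one, and the bin correlation 0.169 over bins of at least 10 regions. The difference of medians with and without CHR letters was -0.0023 with median centring, against 0.0014, and for CCAAT -0.0077, against -0.0023. Another 63 values of these summaries under the alternatives kept their direction and moved by less than 1.5 times or the interval given. The settings without called intervals (45.5% of windows and 49.9% of regions past the fold with the same sign in EtOH), and those as deposited or without a minimum for distance classes, were added after seeing the data.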
